A study of Mus musculus with 4 samples.

Results

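Interferon-response macrophages were the cardiac macrophages that carried transcripts of several interferon-induced genes at once. They were chosen by 2 conditions among cells with 500 to 40000 UMIs (unique molecular identifiers, each counting 1 captured transcript) and more than 200 genes. A member had at least 1 UMI in 4 or more of Ifit1, Ifit2, Ifit3, Rsad2, Cmpk2 and Usp18. It also had at least 30 UMIs of C1qa, C1qb and C1qc, the macrophage complement genes, per 10000 total UMIs. In all, 1733 of 41533 cells were members, 123 at baseline and 429, 769 and 412 in infarct replicates 1, 2 and 3. In each library they were set beside the C1q-positive cells with 0 UMIs of all 6 genes, called comparator cells here, which numbered 4906 at baseline and 5566, 5662 and 5732 in the infarcts.

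The cells came from Csf1r-EGFP (MacGreen) mice aged 12 to 16 weeks, in which the mouse Csf1r promoter drives EGFP, and were sorted as EGFP-positive and Ly6G-negative. The baseline group was 1 library from 3 pooled hearts without surgery, and the infarct group was 3 libraries, each from a single heart, 7 days after permanent ligation of the left coronary artery with the remote zone left out. All groups carried the reporter, and Csf1r is also expressed in monocytes, so the sort was not limited to tissue macrophages. The baseline library had no replicate, so no test between infarct and baseline was made, and the tissue taken cannot be told apart from injury.

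Type I interferons bind the receptor made of Ifnar1 and Ifnar2, whose kinases Jak1 and Tyk2 activate transcription factors, Stat2 among them. These join Irf9 and bind the interferon-stimulated response element (ISRE) in front of antiviral genes such as the Ifit family. In the injured heart, macrophages that take up DNA of dying cells are known to start this pathway through the cGAS and STING sensors and Irf3.

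The 6 chosen genes lie on chromosomes 19, 12 and 6 of the mouse genome (GRCm38). Ifit2 (chr19:34550694-34576419), Ifit3 (chr19:34583531-34588731) and Ifit1 (chr19:34640871-34650009) are neighbours that encode proteins binding foreign RNA. Rsad2 (chr12:26442746-26456452), which encodes viperin, and Cmpk2 (chr12:26469204-26479837), a mitochondrial nucleotide kinase, lie next to each other. Usp18 (chr6:121245906-121270917) encodes the protease that removes Isg15 from proteins and dampens receptor signalling.

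The core letters of the ISRE, GAAA repeated after a gap of any 2 bases (TTTC, 2 bases and TTTC on the other strand), were searched with overlaps allowed on both strands of RefSeq promoter windows, from 250 bases before to 50 after each start (GRCm38.p6). They are shown here for the chosen genes that hold them and for the antiviral gene Isg15 and the chemokine Cxcl10, 5′ to 3′ on the gene's strand with the matched letters in capitals. The windows are chr19:34640777-34640802 (plus strand, 104 bases before the start) and chr19:34640796-34640821 (plus strand, 85 before) for Ifit1, chr19:34583365-34583390 (plus strand, 156 before) for Ifit3 and chr19:34607761-34607786 (plus strand, 188 before) for its near copy Ifit3b. Those of Rsad2, Isg15 and Cxcl10 are chr12:26456555-26456580 (120 before), chr4:156200873-156200898 (72 before) and chr5:92349085-92349110 (213 before), all on the minus strand.
Ifit1, distal: ggcttcagTTTCACTTTCcagtctca
Ifit1, proximal: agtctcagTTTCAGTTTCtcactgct
Ifit3: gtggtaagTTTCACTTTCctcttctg
Ifit3b: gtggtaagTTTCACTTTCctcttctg
Rsad2: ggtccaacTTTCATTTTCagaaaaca
Isg15: aggaaaagGAAACCGAAAcagaaaat
Cxcl10: acgctttgGAAAGTGAAActtacctc
Isg15 held 3 overlapping matches, of which the middle one is in capitals. A second match of Ifit3, 122 bases before the start, and of Ifit3b, 154 before, is not shown. Ifit3 and Ifit3b held the same 26 letters in the match shown, and reads that match both copies may affect their counts.

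Of 27025 genes with a window, 1079 held these letters, which is 3.99%. A window was found for 5 of the 6 chosen genes, and 3 of those held a match. Among the genes that were higher in members of the infarcts by the test given further on, 700 of 869 had a window and 109 of those held a match (15.6%). Among the lower genes, 225 of 281 had one and 6 held a match (2.67%). Windows existed for 35 of 44 antiviral effectors, under 80%, so no share is given for them. A match describes letters and is not a binding site.

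Members made up a larger share of C1q-positive cells in each infarct than at baseline. They were 1.84% of 6672 C1q-positive cells at baseline (95% exact binomial interval 1.53% to 2.20%). In infarct replicates 1, 2 and 3 they were 5.47% (4.98% to 6.0%), 8.53% (7.96% to 9.12%) and 4.90% (4.45% to 5.38%), with a mean of 6.30% ± 1.95 (SD, n = 3). The infarct mean was 3.42-fold the baseline share, and no infarct interval reached the baseline one. Intervals cover counting error only.

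Sequencing depth differed between these libraries, with a median of 6398.5 UMIs per kept cell at baseline and 8470 to 8556.5 in the infarcts. After each cell was thinned to 4000 UMIs, the shares were 1.07% at baseline and 3.91% ± 1.36 (SD, n = 3) in infarcts. After thinning to 2000 UMIs they were 0.553% and 2.19% ± 0.797 (SD, n = 3). The ratio of the infarct mean to baseline was then 3.66 and 3.95. Counting cells with 3 or more of the 6 genes gave 3.66% and 9.53%, and with 5 or more 0.989% and 4.29%. Infarct replicate 2 had the highest share under each of these settings, and without it the infarct mean was 5.18%.

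**Figure D1:**
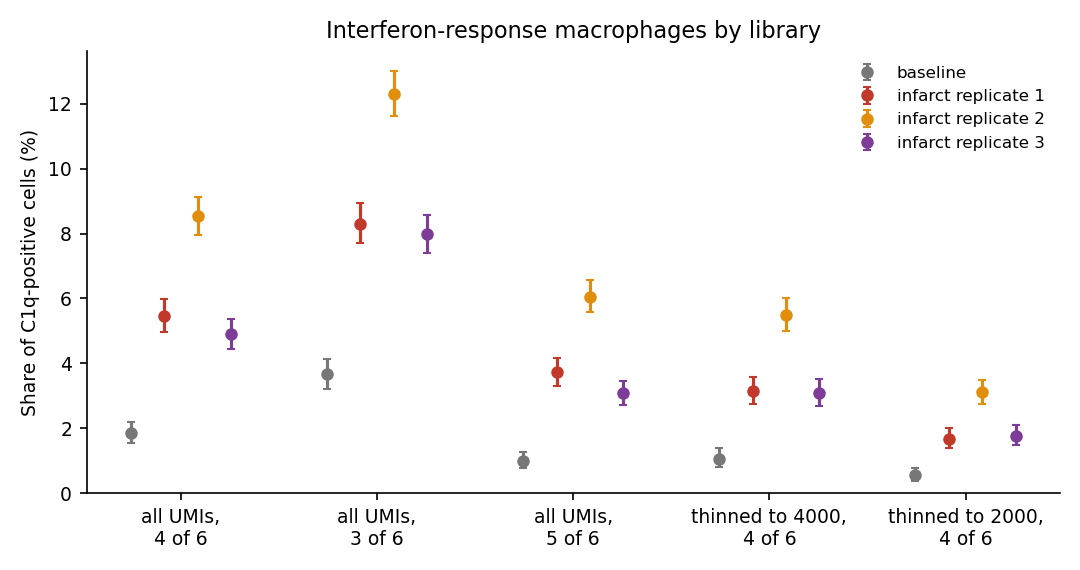
Share of members among C1q-positive cells (y axis, percent) in each library, for all UMIs with 3 thresholds on the 6 genes and for cells thinned to 4000 or 2000 UMIs. Points are libraries and bars are 95% exact binomial intervals. The baseline point is the lowest under each setting (1.84% against 4.90% to 8.53% in the first).

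The 6 genes chose the members, so their levels are given as a description. Counts were summed over the cells of a library and divided by their total without mitochondrial genes, as counts per 1000000 (CPM). Ifit3 stood at 699 CPM in members at baseline and 715, 838 and 911 CPM in the infarcts. Ifit2 stood at 826 CPM at baseline and 659, 689 and 703 CPM in the infarcts. The antiviral enzyme gene Rsad2 was at 441 CPM against 536, 591 and 560 CPM. Among C1q-positive cells with 3 of the genes, just outside the rule, Ifit3 was at 151 to 186 CPM, and among those with 4, just inside, at 261 to 363 CPM. Cmpk2 was the least often detected, with a UMI in 60.2% to 66.0% of members.

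Members also expressed genes outside the rule that interferon is known to induce, and the level rose with the number of chosen genes detected. The antiviral effectors, a list of 44 genes such as Isg15, Oasl1 and Mx1 of which Mx2 was not in the table, were summed over cells grouped by that number. At baseline the sum went from 5341 CPM in cells with none to 23024 CPM in cells with all 6. In infarct replicates 1, 2 and 3 it went from 4603 to 16531, from 4379 to 18217 and from 4468 to 18834 CPM. The sum was higher at each further gene in each library. Median UMIs per cell were 6212.5 to 8314 at 0 genes and 9887 to 10701 at 6, and their part in the sums was not tested.

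**Figure D2:**
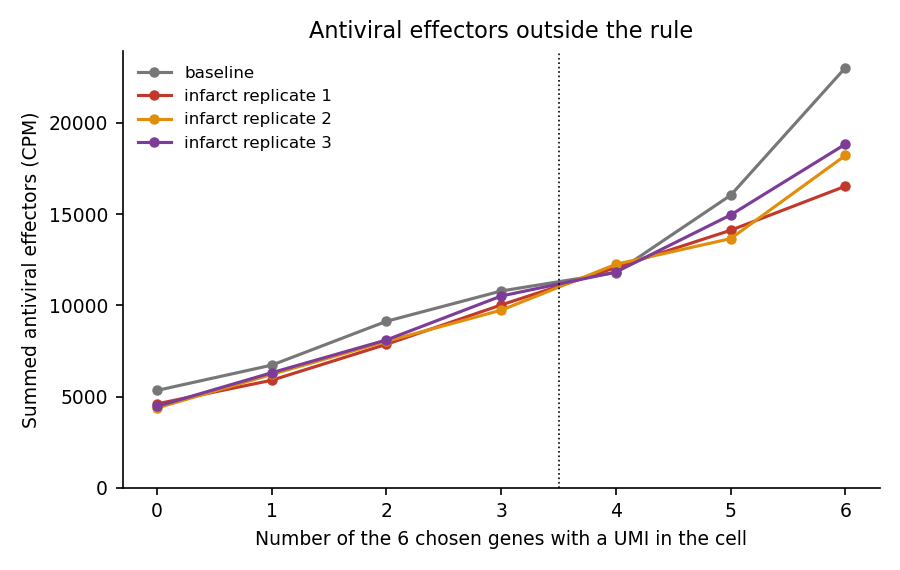
Summed CPM of the antiviral effectors (y axis) in C1q-positive cells grouped by how many of the 6 chosen genes had a UMI (x axis), 1 line per library. The dotted line marks the rule, with members to its right. All 4 lines climb, from 4379 to 5341 CPM at 0 genes to between 16531 and 23024 CPM at 6.

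Single cells overlapped across the rule. Per 10000 UMIs of a cell, the median of the antiviral effectors was 142 in baseline members and 138, 138 and 147 in members of infarct replicates 1, 2 and 3. In comparator cells it was 42.3 at baseline and 34.8, 32.0 and 34.0 in the infarcts. Members ranged from 56.7 to 64.5 at their 5th percentile to 271 to 323 at their 95th. Between 43.3% and 50.2% of members lay above the 99th percentile of the comparator cells of the same library. Cells with 3 of the genes had medians of 88.6 to 102, and cells with 4 had 107 to 117. Whether members form a separate type was not tested.

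As macrophages, members expressed the growth factor receptor gene Csf1r, at 1161 CPM at baseline and 765, 759 and 790 CPM in infarcts. Comparator cells had 1263 CPM at baseline and 833, 825 and 839 CPM. Of 8 core macrophage markers tested, Fcgr1 and Cd68 rose and Cd14 fell in members, beside 6.97% higher and 2.25% lower among all genes tested. Fcgr1 encodes the high-affinity IgG receptor and is itself interferon-inducible. It was at 701, 762 and 759 CPM in members and 237, 258 and 234 CPM in comparator cells (log2 1.71 ± 0.05 SE, adjusted p = 2.71e-12). Cd68 passed narrowly (log2 0.17) and kept its call in 7 of 15 alternatives. Members had medians of 9341 to 10110 UMIs per cell and comparator cells 6212.5 to 8314, while the median mitochondrial share was 2.56% to 4.79% in members and 2.94% to 4.86% in comparator cells. No barcode of a member was shared between libraries.

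Markers of other cell types were counted in the same cells. In all, 54 of 1733 members had 3 or more markers of a B cell, T and NK cell, granulocyte, endothelial, fibroblast, cardiomyocyte or erythroid list, which was 2.34% to 4.85% of members per library and 1.51% to 2.41% of comparator cells. Of the 5 B cell markers tested, 0 passed, with sums of 28.8 to 44.8 CPM in members and 35.9 to 51.0 CPM in comparator cells. The 6 T and NK cell markers summed to 0.428 CPM or less in members and to 1.57 CPM or less in comparator cells, 4 of them were at 0 in members of all libraries, and none was tested. Of 5 cardiomyocyte markers 0 passed, with sums of 26.4 to 66.4 CPM in members and 29.7 to 65.7 CPM in comparator cells. The granulocyte markers summed to 58.3, 67.4 and 62.8 CPM in infarct members against 68.1, 64.8 and 71.9 CPM, and to 313 CPM against 33.7 at baseline, where 1 member held 119 of the 120 UMIs of S100a8. The endothelial markers summed to 29.3 to 56.6 CPM in members and 23.9 to 53.7 CPM in comparator cells. The erythroid sum was 4.29 CPM or less in members and the 1 erythroid gene tested, Hbb-bs, did not pass (log2 1.06, adjusted p = 0.207). Of 5 dendritic cell markers tested 0 passed. The list summed to 22.1, 16.4 and 5.42 CPM in members of infarct replicates 1, 2 and 3 against 14.7, 8.36 and 11.2 CPM in comparator cells. At baseline the sums were 27.9 against 37.6 CPM. Among the fibroblast genes, Col1a2 rose (log2 0.67 ± 0.13 SE, adjusted p = 0.00284) but kept its call in 7 of 15 alternatives, and the list summed to 112 CPM in members of infarct replicate 1 against 30.9 and 36.3 CPM in the others. In replicate 1, a single member held 197 of the 250 Col1a1 UMIs. Without the cells that carried such markers, 857 genes were higher and 272 lower. The part of these markers in the results was otherwise not tested.

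Among the infarct libraries, members and comparator cells of the same heart were compared by edgeR's quasi-likelihood test with the library as a block. Of 12468 genes tested, 869 were higher in members (6.97%) and 281 lower (2.25%) at a Benjamini-Hochberg adjusted p of 0.01, and the median log2 fold change of all genes was -0.02. The 9 genes of the rule were not tested. At baseline, with no test, 3.17% of these genes were at least 2-fold higher in members and 4.83% at least 2-fold lower, after 1 CPM was added to both sides. Fold changes of the test use TMM scaling, so their sign can differ from that of the CPM where a difference is small. Each p sets the difference between members and comparator cells against its spread over 3 hearts. The test draws that spread partly from other genes, so p does not measure the spread of a single gene alone.

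**Figure D3:**
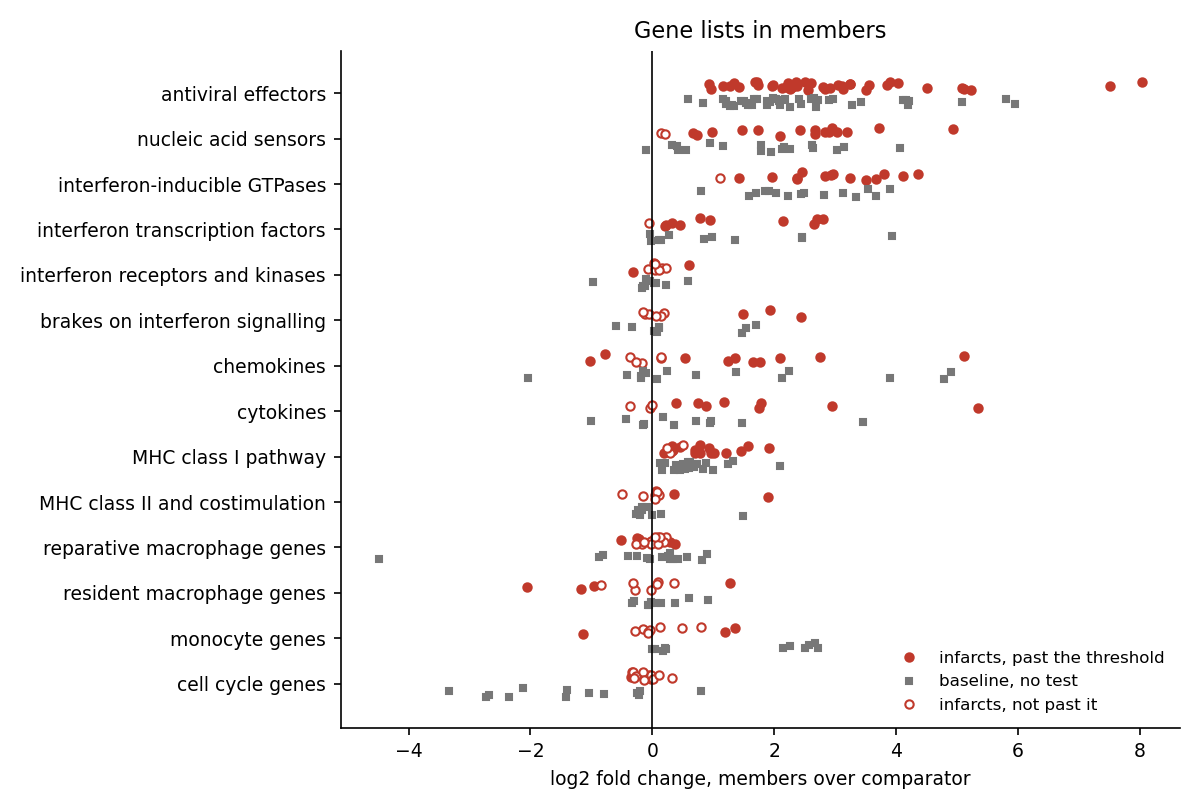
Log2 fold change of members over comparator cells (x axis) for the tested genes of 14 lists (y axis). Red circles are the test over 3 infarct libraries, filled past the threshold and open otherwise, and grey squares are the single baseline library with 1 CPM added to both sides. Antiviral effectors lie to the right of 0 (0.93 to 8.03 in infarcts), whereas receptors and kinases lie between -0.32 and 0.60.

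Of 19 interferon genes, Ifnb1 was the one found mostly in members. Ifnb1 encodes interferon beta, and 28 of all 41533 cells had a UMI of it, 15 of them members. The members with a UMI numbered 1 at baseline and 4, 5 and 5 in infarct replicates 1, 2 and 3, whereas comparator cells with one numbered 1, 3, 3 and 3 although they were far more numerous. In UMIs, members of replicates 1, 2 and 3 held 5, 7 and 115. A single member of replicate 3 held 108 of those 115 UMIs. The test gave a log2 of 6.04 ± 0.78 SE (adjusted p = 7.16e-05), a value that rests on these few cells and kept its call in 10 of 12 alternatives. Ifnb1 lies at chr4:88522025-88522774 and was the only interferon gene with enough counts to be tested. Ifnk, Ifng and Ifnab were seen in a few cells, and members held 1 UMI of Ifng and none of the others. The remaining 15 genes, the Ifna family among them, had 0 UMIs in all libraries, and a count of 0 allows up to 3 UMIs.

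Of 10 receptor and kinase genes, Jak2 rose and Ifngr1 fell, beside 6.97% higher and 2.25% lower among all genes tested. Jak2 encodes a kinase of the interferon gamma receptor and stood at 40.1, 33.0 and 30.9 CPM in members against 26.5, 21.3 and 26.3 CPM (log2 0.60 ± 0.09 SE, adjusted p = 0.000213). Ifngr1, the ligand-binding chain of the interferon gamma receptor, stood at 257, 271 and 317 CPM in members against 367, 370 and 390 CPM (log2 -0.32 ± 0.05 SE, adjusted p = 0.000597). The groups of neither gene overlapped. Jak2 kept its call in 14 of 15 alternatives and Ifngr1 in 13. Ifngr1 did not pass with the comparator matched on total UMIs or without the replicate block. The type I receptor gene Ifnar1 was at 107, 104 and 93.2 CPM in members and 114, 114 and 113 CPM in comparator cells (log2 -0.06 ± 0.05 SE, adjusted p = 0.458). Ifnar2 did not pass either (log2 0.16 ± 0.05 SE, adjusted p = 0.0426), nor did the kinases Jak1 (log2 0.04), Tyk2 (log2 0.22) and Tbk1 (log2 0.12).

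Of 11 transcription factors of the pathway, 10 rose, beside 6.97% of all genes tested. Stat2, a factor of type I signalling, was at 141 CPM in members of each infarct library against 22.5, 19.9 and 23.4 CPM (log2 2.80 ± 0.06 SE, adjusted p = 8.94e-14). Irf7, which amplifies interferon production, was at 404, 443 and 410 CPM against 54.2, 88.4 and 67.2 CPM (log2 2.70 ± 0.08 SE). Members of all 3 hearts were thus above all comparator sums for these factors. At baseline Stat2 was at 203 CPM against 36.1 and Irf7 at 254 against 15.7. Irf9, the DNA-binding partner, rose less (log2 0.78 ± 0.07 SE, adjusted p = 1.37e-06), as did Irf1 (log2 0.95) and Irf2 (log2 0.45). Irf5 and Stat3 passed narrowly (log2 0.23 and 0.22) and kept their calls in 9 and 7 of 15 alternatives. Irf3, which sensors activate by phosphorylation, did not pass (log2 -0.05 ± 0.08 SE, adjusted p = 0.736).

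All 43 antiviral effectors tested rose in members of the infarcts, with log2 fold changes of 0.93 to 8.03 and a median of 2.50, beside a median of -0.02 over all genes tested. The 43 passed under all 15 alternatives as well. Isg15 encodes a ubiquitin-like protein that is coupled to other proteins and also secreted. It stood at 915, 1034 and 878 CPM in members against 26.1, 34.9 and 26.9 CPM in comparator cells (log2 5.11 ± 0.06 SE, adjusted p = 1.33e-15). Mx1, a GTPase that blocks viral replication, was at 130, 160 and 149 CPM against 4.47, 5.2 and 4.16 CPM (log2 5.08 ± 0.07 SE). Oasl1, which restrains Irf7 translation, was at 99, 111 and 103 CPM against 3.07, 2.66 and 3.26 CPM (log2 5.22 ± 0.09 SE). The groups of these genes lay far apart in each heart. Ifit1bl1 and Ifit3b had the highest values (log2 8.03 and 7.51), but they are near copies of chosen genes. Reads that match both copies may affect their counts, and their independence of the rule was not tested. At baseline 41 of the 43 were at least 2-fold higher in members, beside 3.17% of all genes tested. The 43 had a median log2 ratio of 2.07, and Isg15 stood at 719 CPM against 20.3.

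Shares of cells gave the same order. With each cell thinned to 4000 UMIs, Isg15 had a UMI in 84.6%, 82.8% and 79.2% of members of infarct replicates 1, 2 and 3 and in 70.0% at baseline. In comparator cells it was found in 8.23%, 9.76%, 8.03% and 6.54%. Cells with 3 or more B cell markers that were not C1q-positive numbered 6 to 31 per library after thinning, and 0 to 2 of them had an Isg15 UMI. Cells that met the interferon-gene condition of the rule were also left out of this group. Its low Isg15 can therefore not be read apart from that choice. Without thinning the shares were 86.2% to 94.6% of members and 9.68% to 17.4% of comparator cells, at median depths of 9341 to 10110 and 6212.5 to 8314 UMIs. So few cells with B cell markers, chosen in this way, do not set a background level for the comparator shares.

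Of 18 sensors of nucleic acids, 16 rose, beside 6.97% of all genes tested. Zbp1, a sensor of Z-form nucleic acid, was at 326, 310 and 301 CPM in members against 43.4, 40.2 and 38.7 CPM (log2 3.04 ± 0.05 SE, adjusted p = 9.61e-15). Ifi205, Ifi211 and Ifi209, members of the family of DNA-binding Ifi200 proteins, rose by log2 4.93, 3.71 and 3.19, though reads of such a gene family may be split between copies. Tmem173, which encodes the adaptor STING, was at 92.5, 82.2 and 79.2 CPM against 79.4, 82.7 and 70.6 CPM and did not pass (log2 0.22 ± 0.06 SE, adjusted p = 0.0193). Mavs, the adaptor of RNA sensing, did not pass either (log2 0.15, adjusted p = 0.418). At baseline 12 of the 18 were at least 2-fold higher, beside 3.17% of all genes tested.

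The interferon-inducible GTPases, which attack membranes around intracellular microbes, rose in 14 of 15 tested, beside 6.97% of all genes tested. Their median log2 was 2.93. Iigp1 was at 80.1, 109 and 106 CPM in members against 6.99, 3.47 and 5.17 CPM (log2 4.36 ± 0.18 SE, adjusted p = 2.32e-10). Ifi47 was at 268, 251 and 233 CPM against 23, 17.8 and 17.2 CPM (log2 3.81 ± 0.06 SE). Tgtp2 and Gbp6 rose by log2 4.12 and 3.68, and both have near copies. Gbp2b, at 2.36 CPM or less, did not pass (log2 1.10, adjusted p = 0.15). At baseline 14 of the 15 were at least 2-fold higher, beside 3.17% of all genes tested. Iigp1 was there at 269 CPM against 17.1, above its level in each infarct in both kinds of cell.

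**Figure D4:**
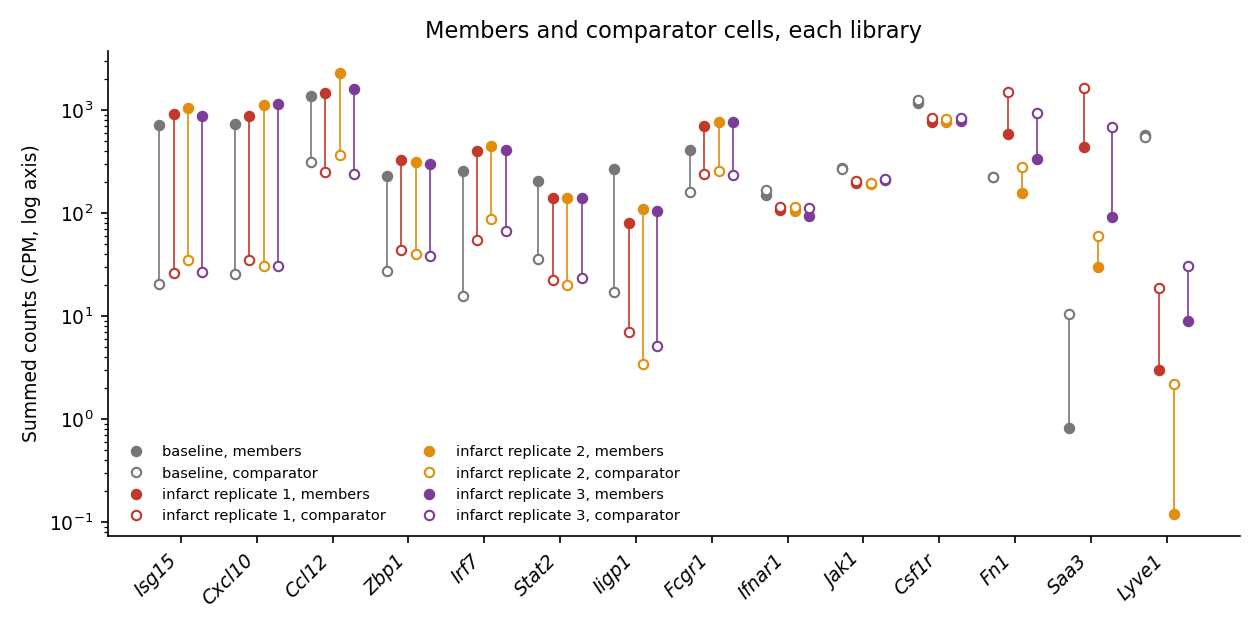
Summed counts in CPM (y axis, log scale) of 14 genes (x axis) in members (filled) and comparator cells (open) of each library, joined by a line. Isg15 to Fcgr1 are higher in members of all 4 libraries, Ifnar1, Jak1 and Csf1r lie close together, and Saa3 is lower in members.

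Chemokine genes split, with 8 of 15 tested higher and 2 lower, beside 6.97% and 2.25% of all genes tested (Cxcl11 was not in the table). Cxcl10, which attracts T cells through Cxcr3, was at 882, 1112 and 1151 CPM in members against 35.1, 30.8 and 30.5 CPM in comparator cells (log2 5.12 ± 0.10 SE, adjusted p = 5.03e-14). At baseline it was at 728 CPM against 25.5. Its transcripts were in a portion of members, with a UMI in 44.1%, 49.2% and 47.3% of them in infarct replicates 1, 2 and 3 and in 26.0% at baseline. After thinning to 4000 UMIs those shares were 34.9%, 40.4%, 38.3% and 25.8% of members and 2.34% to 4.47% of comparator cells. Ccl12, a monocyte attractant, was at 1475, 2292 and 1595 CPM in members against 249, 365 and 239 CPM (log2 2.75 ± 0.05 SE, adjusted p = 1.66e-14). Ccl7 rose by log2 1.76 ± 0.22 SE, with replicate 2 at 465 CPM in members against 192 and 183 CPM in the others. Cxcl9 rose by log2 2.10 ± 0.13 SE, and was not past the threshold with the comparator matched on total UMIs or without the block. It was in few cells, 5 of 123 members at baseline, where a single cell held 138 of 229 UMIs. Ccl24, a chemokine for eosinophils, fell (log2 -1.02 ± 0.19 SE, adjusted p = 0.00159) and kept its call in 11 of 15 alternatives. The abundant Cxcl16 and Cxcl2 did not pass (log2 0.15 and -0.16).

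Of 11 cytokine genes, 8 rose and 0 fell, beside 6.97% higher and 2.25% lower among all genes tested. Tnfsf10 encodes the death ligand TRAIL and was at 40.3, 37.8 and 47.2 CPM in members against 1.03, 0.966 and 1.29 CPM (log2 5.35 ± 0.12 SE, adjusted p = 2.01e-13). Il15, which sustains NK and memory T cells, was at 46.7, 52.1 and 48.1 CPM against 15.2, 16.9 and 14.7 CPM (log2 1.75 ± 0.08 SE). Il27 rose by log2 1.79 ± 0.20 SE from low levels. Il12b passed (log2 2.94), but single cells held 3 of 3, 23 of 25 and 37 of 43 of its UMIs in members of the 3 infarcts, and it was higher in 2 of 3 libraries. The inflammatory cytokine gene Il1b was at 524, 602 and 560 CPM in members against 591, 708 and 569 CPM and did not pass (log2 -0.04 ± 0.05 SE, adjusted p = 0.634).

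Antigen presentation differed by class. Of 20 genes of the MHC class I pathway, 17 rose and 0 fell, beside 6.97% higher and 2.25% lower among all genes tested. Their median log2 was 0.73. Nlrc5, the class I transactivator, was at 35.8, 27.5 and 29.1 CPM against 9.44, 7.88 and 8.81 CPM (log2 1.92 ± 0.09 SE, adjusted p = 1.23e-09). Tap1, which carries peptides into the endoplasmic reticulum, rose by log2 1.58 ± 0.05 SE, and the immunoproteasome subunit gene Psmb9 by 1.20 ± 0.05 SE. Of 10 genes of MHC class II and costimulation, only the costimulatory Cd40 and Cd86 rose, beside 6.97% of all genes tested. Cd40 was at 79.9, 61.8 and 71.1 CPM against 27.3, 16.4 and 18.4 CPM (log2 1.90 ± 0.08 SE, adjusted p = 5.06e-10). The class II gene H2-Aa did not pass (log2 0.05 ± 0.04 SE, adjusted p = 0.492), and neither did the invariant chain gene Cd74 (log2 0.05, adjusted p = 0.544).

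Brakes on the pathway rose in 3 of 9 tested, beside 6.97% of all genes tested. Socs1, which blocks Jak kinases, was at 21.0, 29.3 and 31.6 CPM in members against 5.59, 5.62 and 4.93 CPM (log2 2.44 ± 0.14 SE, adjusted p = 7.46e-09). Cd274, the gene of the inhibitory ligand PD-L1, rose by log2 1.94 ± 0.11 SE and Il18bp, which neutralises interleukin 18, by 1.48 ± 0.08 SE. Socs3, a brake on interleukin 6 signalling, was at 220, 204 and 227 CPM against 255, 222 and 284 CPM and did not pass (log2 -0.12 ± 0.05 SE, adjusted p = 0.129). Tnfaip3, Ptpn1, Ptpn2, Ptpn6 and Pias1 did not pass either.

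Genes that mark reparative and resident macrophages passed in 5 of 16 and 4 of 11 cases, beside the 6.97% higher and 2.25% lower among all genes tested. Of the 16 reparative genes, Spp1 and Mmp14 rose and 3 fell, with a median log2 of 0.01. Spp1 encodes osteopontin and was at 1565, 1918 and 1066 CPM in members against 1331, 1272 and 1067 CPM (log2 0.38 ± 0.07 SE, adjusted p = 0.00271), so members of replicate 3 were not above their comparator. Spp1 kept its call in 11 of 15 alternatives, and with the comparator matched on total UMIs it did not pass (log2 0.06). Mmp14 kept its call in 12 of 15, and did not pass with that comparator or with cells thinned to 4000 UMIs. The 3 that fell include Gdf15 (log2 -0.52) and Cd9 (log2 -0.24). Gdf15 and Cd9 kept their calls in 13 and 11 of 15 alternatives, and neither passed with cells thinned to 4000 UMIs. The lipid receptor gene Trem2 did not pass (log2 0.10 ± 0.04 SE, adjusted p = 0.119), and Lgals3 did not (log2 0.05). Of the 11 resident genes, Siglec1 rose and 3 fell. Siglec1, a sialic acid receptor that interferon induces, was at 34.1, 35.8 and 41.8 CPM against 17.1, 14.5 and 17.8 CPM (log2 1.28 ± 0.09 SE, adjusted p = 7.14e-08). Lyve1, a hyaluronan receptor of perivascular macrophages, was at 3.00, 0.120 and 9.03 CPM in members against 18.6, 2.22 and 30.9 CPM (log2 -2.05 ± 0.20 SE, adjusted p = 4.34e-06). Cd163 and Vsig4 also fell (log2 -0.95 and -1.17), and kept their calls in 11 of 15 and 8 of 14 alternatives, with Cd163 not past the threshold when the comparator was matched on total UMIs or cells were thinned to 4000 UMIs. In infarct replicate 3, a single member held 35 of the 40 Lyve1 UMIs of members. At baseline Lyve1 was at 566 CPM in members and 544 CPM in comparator cells.

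Monocyte genes passed in 3 of 11 cases, beside 6.97% higher and 2.25% lower among all genes tested. Plac8 was at 225, 193 and 85.5 CPM in members against 143, 58.1 and 48.3 CPM (log2 1.19 ± 0.14 SE, adjusted p = 3.70e-05). Ly6c2, which marks classical monocytes, rose by log2 1.36 ± 0.31 SE (adjusted p = 0.00744), led by replicate 2 with 117 CPM against 21.4, while replicates 1 and 3 had 44.3 against 33.0 and 22.3 against 20.4. It kept its call in 12 of 15 alternatives, with log2 down to 0.42. Fn1, the fibronectin gene, fell. At baseline 6 of the 11 were at least 2-fold higher in members, beside 3.17% of all genes tested. Ly6c2 was among them, at 89.6 CPM against 15.0 and carried by 15 of 123 members. Of 13 cell cycle genes in infarcts, 0 rose and Mki67 and Stmn1 fell (log2 -0.33 and -0.34), Mki67 with its call kept in 8 of 15 alternatives. At baseline 8 of the 13 were at least 2-fold lower in members, beside 4.83% of all genes tested.

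Other lists held single genes that passed, beside 6.97% higher and 2.25% lower among all genes tested. A single gene in a list this short is no result about the list. Of 11 sterol genes, Ch25h rose, whose product makes the antiviral 25-hydroxycholesterol. It was at 64.9, 96.8 and 66.4 CPM against 25.5, 30.5 and 21.5 CPM (log2 1.66 ± 0.07 SE, adjusted p = 4.73e-10), while Hmgcs1, an enzyme of cholesterol synthesis, did not pass (log2 0.10). Of 9 efferocytosis genes, the uptake receptor Axl rose (log2 0.71 ± 0.05 SE, adjusted p = 9.09e-08) and its ligand Pros1 fell (log2 -0.38 ± 0.07 SE). Among 5 endothelial markers Kdr, the VEGF receptor 2 gene, rose from 1.64, 1.82 and 2.45 CPM in comparator cells to 13.7, 18.1 and 9.71 CPM in members (log2 2.93 ± 0.22 SE, adjusted p = 2.52e-07). Kdr UMIs were in 48, 88 and 34 members of the 3 infarcts, whereas Pecam1, a defining endothelial gene, was at 1.07, 3.24 and 2.48 CPM in members and did not pass (log2 -0.28, adjusted p = 0.581). No member had 3 or more endothelial markers.

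Among the 10 lowest fold changes past the threshold, limited to genes that were lower in 3 of 3 libraries and averaged 20 CPM or more in comparator cells, Saa3, Fn1, Slpi and Marco are described here, and the levels of all 4 differed several-fold between hearts. Saa3, a serum amyloid gene, was at 435, 30.0 and 91.6 CPM in members against 1638, 60.2 and 683 CPM in comparator cells of the same hearts (log2 -1.91 ± 0.20 SE, adjusted p = 1.02e-05). Fn1 was at 584, 157 and 333 CPM against 1484, 281 and 941 CPM (log2 -1.13 ± 0.08 SE, adjusted p = 2.10e-07). Slpi, a protease inhibitor gene, was at 11.6, 5.88 and 20.3 CPM against 55.1, 20.7 and 140 CPM (log2 -2.29 ± 0.12 SE, adjusted p = 4.97e-09). The scavenger receptor gene Marco was at 3.43, 5.4 and 12.6 CPM against 23.1, 15.8 and 77 CPM (log2 -2.18 ± 0.16 SE). Members were below comparator cells in each heart, but across hearts the groups of Saa3 and Fn1 overlapped, with replicate 2 lowest. In replicate 2, a single member held 193 of the 250 Saa3 UMIs of members. The other genes among the 10 lowest were Ednrb, Prtn3, Ltc4s, Fcna, Add3 and Ccl24, with log2 of -1.60 to -1.02. Without the replicate block 486 genes were higher and 4 lower. With comparator cells matched on total UMIs 196 were lower, and 113 of them were among the 281. Without infarct replicate 2 there were 477.

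Infarct and baseline members were set side by side without a test. Of 3495 genes with at least 50 CPM in a group, 33.1% had all 3 infarct libraries above baseline and 56.2% had all 3 below, and the median log2 ratio was -0.20 in members and -0.15 in comparator cells. The antiviral effectors had a median log2 ratio of -0.14 (-0.11, -0.14 and -0.14 for the 3 infarcts), against -0.35 in comparator cells. With TMM scaling across libraries the median of the members was 0.14 and that of all genes 0.07, so the direction depended on the scaling and the size stayed within 0.36 under each setting.

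Ratios were ranked for genes not linked to sex that reached 50 CPM in a group and whose 3 infarct libraries all lay above, or all below, baseline. The 6 highest ratios of infarct to baseline members were those of Saa3, Gpnmb, Arg1, Spp1, Ly6a and Ms4a7. Arg1, an enzyme of arginine breakdown, was at 181, 36.3 and 229 CPM in infarct members and 1.64 CPM (2 UMIs) at baseline, and at 453, 54.5 and 285 against 3.49 CPM in comparator cells. Gpnmb and Saa3 had 1 UMI each in baseline members and means of 152 and 186 CPM in infarct members. Spp1 was at a mean of 1516 CPM in infarct members and 65.8 CPM at baseline. The surface antigen gene Ly6a, itself interferon-inducible, had a mean of 299 ± 83.6 CPM (SD, n = 3) against 20.6 CPM, and Ms4a7, a gene of monocyte-derived macrophages, 2898 ± 371 CPM (SD, n = 3) against 419 CPM. Each of these genes was also higher in infarct comparator cells than in baseline ones.

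Under the same limits Lyve1, Cd163, Timd4, Cyr61, Colec12 and Mgl2 were the lowest in infarct members relative to baseline. Cd163, the haemoglobin scavenger receptor, was at 11.1, 3.84 and 7.00 CPM in infarct members and 478 CPM at baseline. Timd4, a phosphatidylserine receptor of embryo-derived resident macrophages, was at 1.5, 0.120 and 0.677 CPM against 92.1 CPM. Mgl2, a C-type lectin, was at 23.8, 30.4 and 38.8 CPM against 833 CPM. In comparator cells their log2 ratios were -4.68 to -5.12 for Mgl2, Timd4 and Cd163, and in members -4.70 to -5.84.

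**Figure D5:**
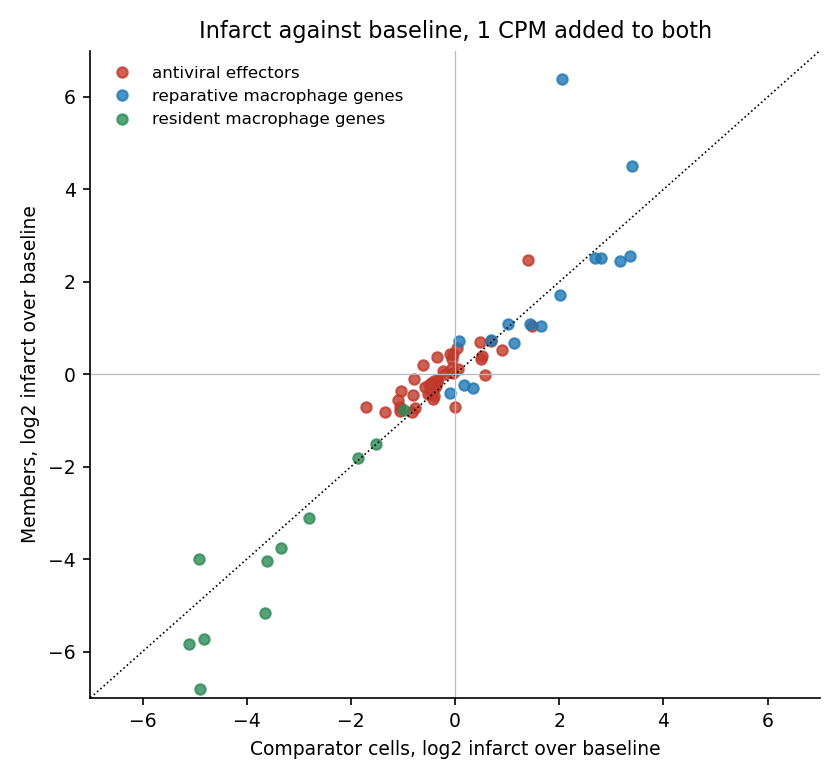
Log2 ratio of the infarct mean over baseline in comparator cells (x axis) and in members (y axis), 1 CPM added to both sides, for antiviral effectors, reparative and resident macrophage genes. The dotted line marks equal ratios. Antiviral effectors lie around 0 (median -0.14 in members), resident genes at the lower left and reparative genes mostly at the upper right, where the highest point is Gpnmb, with 1 UMI in baseline members.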

How the data were processed

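Droplet-based single-cell RNA sequencing (10x 3′ chemistry) had been done on 4 libraries. The deposited tables give, for each gene in each cell, unnormalised UMI counts made by the authors with Cell Ranger (3.0.1 per the labels, 3.1.0 per the file headers) and the mm10 genome, for barcodes called as cells. Library totals were 71093963 to 97944428 UMIs, and the cell filter removed 153 barcodes. The study's own integration, clusters and tests over cells were not used.

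Here counts were summed per library over members and comparator cells, without mitochondrial genes. The 6 sums of the infarcts were tested with edgeR 4.0.16 (R 4.3.3) by glmQLFit and glmQLFTest, with TMM scaling, filterByExpr and the library as a block, at an adjusted p of 0.01 over all genes. The pairing comes from the heart, since both sums of a library share it, and their deviations correlated at 0.60 to 0.63. The 9 genes of the rule stayed in the library size. Baseline and infarct against baseline had no test, and 1 CPM was added to both sides of ratios. Intervals of shares are exact Clopper-Pearson intervals at 95%. Thinning drew a fixed number of UMIs per cell and left out shallower cells. No doublet caller was run, and cells with 3 or more markers of another type were left out as an alternative instead. Cells are not replicates and were not tested as such.

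Within each list, named genes are the 4 with the largest absolute log2 fold change among those past the threshold and the 2 of highest mean CPM among the rest, with all receptors, transcription factors and brakes open to naming. Over all genes, the 10 highest and 10 lowest with at least 20 CPM in the higher group and 1 direction in 3 of 3 libraries were named, and the 6 highest and 6 lowest between infarct and baseline members. The members and the lists were chosen with earlier results of these data known. Alternatives were DESeq2 1.42.0 (size factors and Wald test), no filter, no replicate block, each infarct library left out, other thresholds, thinned cells and a comparator matched on total UMIs. On simulated counts for 12332 genes of the infarct comparison, 100% of 100 genes changed by log2 1 and of 100 changed by log2 2 were recovered, and 0 unchanged genes were called. The simulation set 1 spread for all genes and changed only genes of at least 20 CPM. It therefore gives no error rate for rarer genes or for genes that vary more. Promoter windows and gene positions are from RefSeq GRCm38.p6 and a GENCODE annotation of GRCm38, and windows were matched by symbol or older symbol. Values of some single genes are not reported here.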

Additional observations from a re-analysis of the deposited data

Results flagged for a closer look

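In C1q-low cells, which were not members, the 6-gene condition was met by 2.98% of cells in infarct replicate 1 (76 of 2554) and by 8.46% in replicate 2 (149 of 1762). Both were above the upper limit of the baseline share, 2.22% with an exact interval of 1.76% to 2.75%, while replicate 3 was at 1.82%. After thinning to 4000 UMIs the shares were 1.94% and 5.26% in replicates 1 and 2 and 1.41% at baseline (interval 0.969% to 1.99%), so replicate 1 was then within the baseline interval.

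Of the named genes past the threshold in infarcts, sex-linked ones left out, 6 lay on one side of their comparator in all 3 infarct libraries and on the opposite side at baseline, and the difference was not tested. S100a8, a granulocyte gene, fell in members of the infarcts (log2 -0.99, call kept in 8 of 15 alternatives) and was at 98.6 CPM against 4.22 at baseline (log2 ratio 4.25), where a single member held 119 of its 120 UMIs. The same library held 190 of 192 UMIs of S100a9 in 1 member. Lyve1 had a log2 of -2.05 in infarcts and 0.059 at baseline. Prtn3 had -1.29 and 0.22, the latter from 4 UMIs. Cd86 had 0.35 and -0.079, Irf5 0.23 and -0.040, and Col1a2 0.67 and -0.058, the last from 1 UMI.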

How the results depend on the processing

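The antiviral effectors stayed at 43 of 43 higher under all 15 alternatives of the test, all of which kept a choice by the same 6 genes. Between 716 and 1023 genes were higher, except 486 with no replicate block. Counts of lower genes depended more on the setting, with 105 by the DESeq2 Wald test, 657 with no filter on low counts, 4 with no replicate block, 181 with at least 3 of the 6 genes and 272 to 477 when each infarct library was left out. The fits without the block shared 486 higher and 4 lower genes with the reported ones, which is how far the block, a pairing by heart, moves the calls. Causes of these changes were not tested, except that no filter tests more genes (19358). No paired analysis was possible because baseline and infarct share no heart, for the comparison of those groups.

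Shares of members were 9.53% and 3.66% (infarct mean and baseline) with at least 3 genes, 4.29% and 0.989% with at least 5, 3.91% and 1.07% with cells thinned to 4000 UMIs and 2.19% and 0.553% with 2000. The median log2 ratio of antiviral effectors between infarct and baseline members was 0.14 with TMM scaling, -0.18 as a mean of each cell's CPM, -0.36 with thinned cells and -0.14 to -0.12 when an infarct library was left out. Of the named genes past the threshold in the reported test or under the alternative, Lgals3 (-0.27) and S100a8 (0.26) with the comparator matched on total UMIs and Vsig4 (0.26) with at least 3 of the 6 genes changed direction. Of 136 genes named, 60 kept both their side of the threshold and their direction in all their alternatives. With 123 baseline members, genes under a few CPM there rest on single UMIs.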
